A study of Drosophila melanogaster
Drosophila virilis with 26 samples.

Results

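The genes described here are 10 genes of Drosophila melanogaster whose proteins choose and open the start points of DNA replication, namely the MCM2-7 helicase genes Mcm2, Mcm3, dpa, Mcm5, Mcm6 and Mcm7, the origin recognition complex (ORC) genes Orc1, Orc2 and Orc5, and the helicase-loading gene dup. They were taken by exact name from the 13802 D. melanogaster genes of the count table, which lists 28133 genes of D. melanogaster and D. virilis together. All 10 passed a filter on low values that kept 6051 D. melanogaster genes.

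Before a cell enters S phase, ORC binds DNA and, with Cdc6 and the Cdt1 protein encoded by dup (double parked), loads the ring-shaped MCM2-7 complex around it. Kinases then turn the loaded ring into an active helicase together with Cdc45 and the GINS complex, and geminin holds back dup so that an origin is not loaded again within the same cycle. The fly embryo begins life with rapid, synchronous nuclear divisions whose S phases are very short, and it runs them on RNA and protein that the mother placed in the egg. The gene dpa (disc proliferation abnormal) encodes the Mcm4 subunit.

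The study asked how well RNA-seq protocols that start from very little RNA measure expression. RNA was extracted in TRIzol from pools of whole 0-4 h embryos of D. melanogaster and of D. virilis, a distant relative, and the total RNA of both was mixed so that D. virilis made up none, 5, 10 or 20% of it. Each mixture became 1 library with TruSeq (Illumina TruSeq mRNA Unstranded, 100 ng of total RNA), Clontech (Low Volume Library Construction Kit, 1 ng), TotalScript (Epicentre, oligo(dT) primed, 1 ng) and SMART-seq2 (SMARTseq v2 in the labels, 1 ng), so that these 4 protocols had 4 libraries each. SMART-seq2 was also run with the tagmentation reaction made 2.5 or 5 times smaller, with a 1% mixture added, giving 5 libraries at each dilution and 26 libraries in all. The 2.5x and 5x libraries were cut from a single set of pre-amplified cDNA that was not the one used for the full-volume libraries, and they had more enrichment cycles. By the paper they were also sequenced together, in a lane apart from all other libraries. Between the dilutions and full volume, tagmentation volume, cDNA, cycles and lane therefore cannot be told apart. TruSeq reactions were run in reduced volumes, and Clontech libraries used TruSeq reagents up to the cDNA. No genotype or strain was named in the labels, and no mixture was repeated within a protocol. The libraries of a protocol therefore differ in their D. virilis share as well as in handling, and they served as repeats only for D. melanogaster genes scaled to the D. melanogaster total. The p-values measure the spread between these libraries, which is technical as far as the sources say, and not between embryos.

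Levels are given as CPM, the reads on a gene per 1000000 reads on D. melanogaster genes in the same library. This D. melanogaster total was highest in the TruSeq libraries (18971801 to 55055710 reads) and the 2 dilutions (11215999 to 19011285), and it was smaller with Clontech (2762902 to 7842785), full-volume SMART-seq2 (1804452 to 1995639) and TotalScript (1561692 to 3395646). Only 47.3 to 57.7% of alignments fell on genes in TotalScript, against 71.9 to 82.7% elsewhere. RNAs that the oocyte stores (bcd, nos, osk, tor and pum) summed to 2334 to 2430 CPM in TruSeq and to 5784 to 6151 CPM in TotalScript. The 7 zygotic blastoderm markers (eve, ftz, Kr, kni, sna, twi and zen) summed to only 15.1 to 17.3 CPM in TruSeq and 11.8 to 29.6 CPM over all 26 libraries, so the RNA carried the maternal markers of an early embryo and little of the zygotic ones. Markers of differentiated cells (elav, Mhc, Act88F and ninaE) summed to at most 4.71 CPM, those of follicle cells and adult fat body to at most 2 CPM, and the chorion gene Cp38 was at 0 in every library.

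In TruSeq, the replication genes together took 0.37 to 0.38% of all D. melanogaster reads. Since whole embryos were pooled, fewer cells with an RNA and less of it per cell cannot be told apart. The helicase genes summed to 2393 to 2470 CPM and the ORC genes to 675 to 685 CPM. These sums changed little between libraries whose depth differed severalfold. The counts behind them were large, from 1413 reads on Orc5 in the 5% library to 34785 reads on dup in the 0% library.

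Of the helicase subunits, Mcm2 was at 388, 371, 391 and 390 CPM in TruSeq, the libraries being given in order of their D. virilis share (0, 5, 10 and 20%). Mcm3 was at 236, 233, 239 and 233 CPM, and dpa at 389, 367, 389 and 388 CPM in the same order. For Mcm2 and dpa the 5% library was the low one, whereas Mcm3 showed no library apart. Mcm5 was at 539, 528, 555 and 528 CPM, Mcm6 at 401, 406, 412 and 402 CPM, and Mcm7 at 481, 487, 484 and 476 CPM. Each of these RNAs was at 233 CPM or more in every TruSeq library.

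Among the ORC genes, Orc1, the large ATP-binding subunit, was at 485, 485, 484 and 485 CPM. Orc2 was at 117, 116, 120 and 114 CPM and Orc5 at 78.1, 74.5, 81.2 and 76.7 CPM. Orc1 had the smallest spread of the replication genes, its highest library being 0.327% above its lowest. That is less than counting reads alone gives, so it does not rank Orc1 as steadier than other genes within counting error. With the counts sampled to equal numbers of alignments Orc1 ran from 472 to 493 CPM in TruSeq. The loader dup was at 632, 628, 645 and 647 CPM.

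Read counts grow with transcript length, and no length from the annotation that the counts rest on was used here, so these CPM set no order of RNA molecules between genes. The balance of subunits is given as shares of reads, to be compared for the same gene between libraries and protocols. Of the reads on the helicase genes in TruSeq, Mcm2 took 15.9% ± 0.26 (SD, n = 4), Mcm3 9.70% ± 0.039, dpa 15.8% ± 0.32, Mcm5 22.1% ± 0.27, Mcm6 16.7% ± 0.21 and Mcm7 19.9% ± 0.35. Of the reads on the 3 ORC genes, Orc1 took 71.4% ± 0.52, Orc2 17.2% ± 0.23 and Orc5 11.4% ± 0.35. The shares were held within narrow limits over the 4 libraries, the widest being those of Orc1 at 70.7 to 71.8%.

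**Figure D1:**
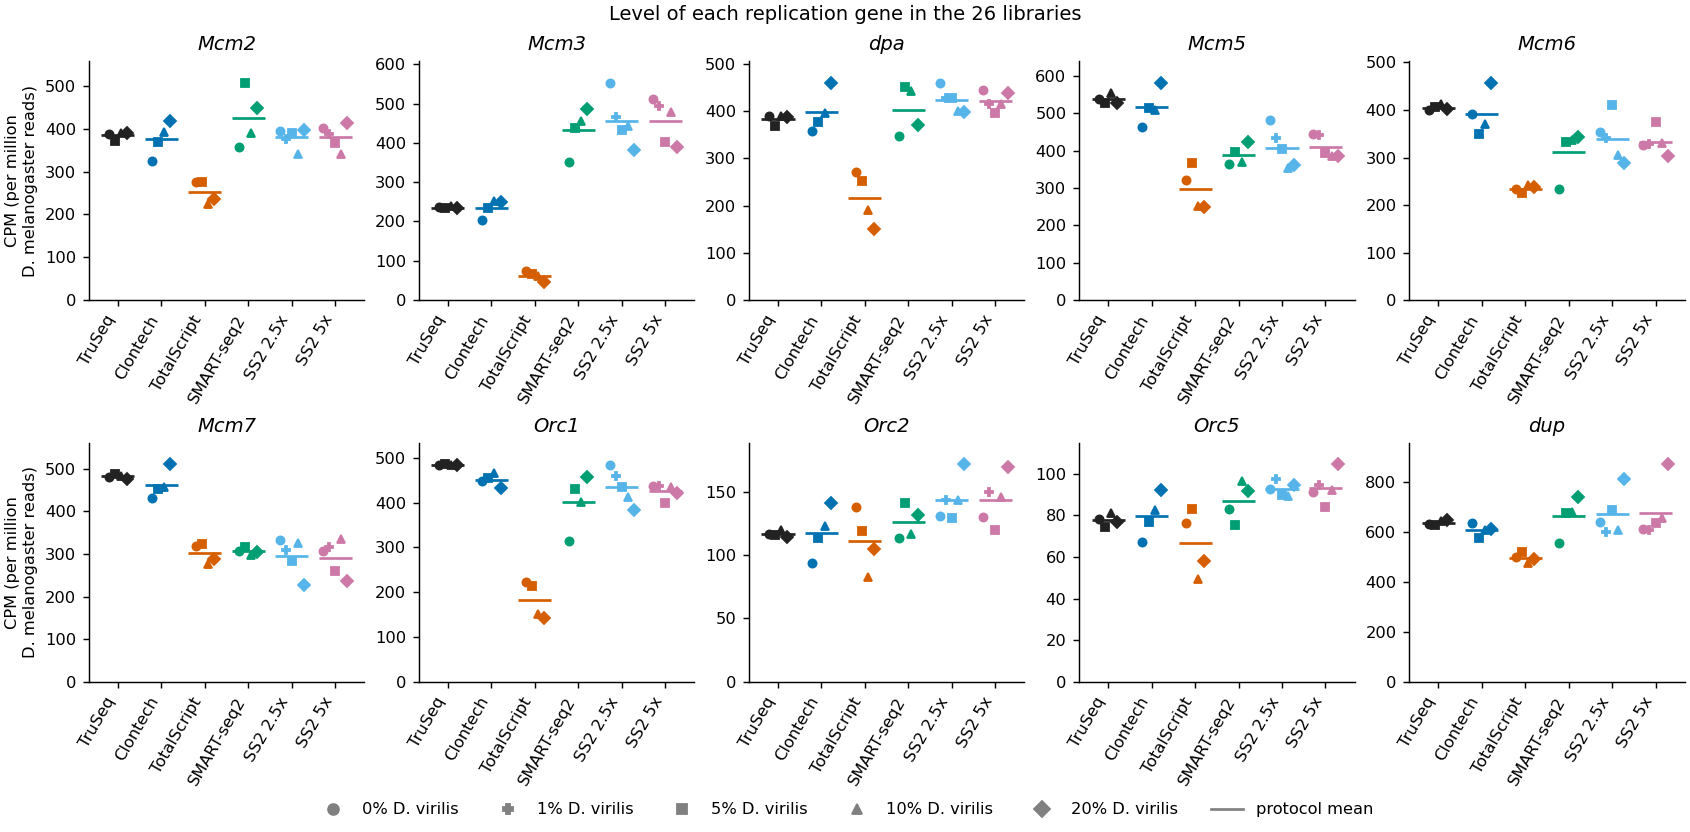
Level of each of the 10 replication genes in the 26 libraries, in CPM (reads per 1000000 reads on D. melanogaster genes) on a linear axis from 0, with 1 panel per gene and 1 column of points per protocol (SS2 stands for SMART-seq2). Each point is a library, its shape gives the D. virilis share, and the horizontal line is the protocol mean. Mcm3 shows the pattern to look for, with TruSeq at 233 to 239 CPM, TotalScript at 47.1 to 72.8 CPM and the SMART-seq2 forms at 351 to 553 CPM.

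How well each protocol recovered these RNAs was asked by setting it against TruSeq with edgeR's quasi-likelihood test over the 6051 genes. The 5 comparisons share the TruSeq libraries and are not independent of each other. Fold changes are of CPM, and a gene is called where the Benjamini-Hochberg adjusted p is under 0.05.

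Clontech gave levels near those of TruSeq for all 10 genes. The log2 fold changes ran from -0.10 (Orc1) to 0.05 (dpa), and their median was -0.04 against 0.03 over all genes. The normal 95% intervals of the single genes lay between -0.21 and 0.23. No replication gene was called by edgeR or by DESeq2 and none had an unadjusted p under 0.05, where 0.182% of all genes were called and 1113 had such a p. The count over all genes was 11 with edgeR and 385 with DESeq2, and it became 779 without the 10% Clontech library, still with no replication gene among those called. Orc1 was the only one of the 10 whose Clontech libraries, at 449, 456, 467 and 433 CPM, lay apart from the TruSeq ones, and 14.7% of all genes did so.

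TotalScript recovered far less of most of these RNAs. Their reads together made up 0.200 to 0.245% of D. melanogaster reads, below every TruSeq library. By edgeR's quasi-likelihood test with Benjamini-Hochberg adjustment, 8 of the 10 were lower and none was higher, where 38.7% of all genes were lower, 39.3% higher and 78% were called in either direction. The median log2 fold change was -0.73 for the 10 genes and -0.00 for all genes.

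Mcm3 fell the most. It was at 72.8, 66.6, 60.5 and 47.1 CPM in the 0, 5, 10 and 20% TotalScript libraries, which rested on 104 to 201 reads. The log2 fold change was -1.95 ± 0.11 (SE; adjusted p = 2.86e-07, edgeR), a level of 0.259 of that in TruSeq. No TotalScript library came near the lowest TruSeq value of 233 CPM.

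Orc1 was next, at 222, 214, 150 and 142 CPM, with a log2 fold change of -1.43 ± 0.14 (adjusted p = 6.59e-06, edgeR). The dpa RNA was at 271, 252, 190 and 151 CPM, with a log2 fold change of -0.84 ± 0.16 (adjusted p = 0.00063, edgeR). For both genes all TotalScript libraries lay below all TruSeq libraries, and the 10 and 20% libraries were the low ones. Mcm5 was at 321, 366, 252 and 250 CPM and fell by 0.86 on the log2 scale (± 0.12).

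The other helicase subunits fell by similar amounts. The log2 fold change was -0.79 ± 0.06 for Mcm6, -0.68 ± 0.07 for Mcm7 and -0.61 ± 0.08 for Mcm2. The fall of dup was the smallest of those called, at -0.36 ± 0.06. In these 4 genes, too, the libraries of the protocols did not overlap, as was so for 8 of the 10 genes and for 72.8% of all genes.

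Orc2 and Orc5 were not called in TotalScript. Orc2 was at 138, 119, 82.2 and 105 CPM, on either side of its TruSeq level, with a log2 fold change of -0.09 ± 0.13. Orc5 was at 76.3, 83.2, 49.4 and 58.3 CPM, with a log2 fold change of -0.25 ± 0.14. Without the 5% TotalScript library Orc5 was called as well (log2 fold change -0.38, adjusted p = 0.0111, edgeR), which made 9 genes. How many of all genes were called in that fit is not given here. The added call can therefore not be read as particular to the replication genes. The maternal marker sum and the share of alignments on genes, given above, moved with this protocol. Within that sum osk (3405 to 3841 CPM against 1112 to 1181 in TruSeq) and nos (1009 to 1228 against 314 to 333) were higher, while tor was lower (119 to 180 against 215 to 225). Their part in the fall of the replication genes was not tested.

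SMART-seq2 changed the balance between these RNAs more than their sum, which was 0.303 to 0.38% of D. melanogaster reads. By edgeR's test 1 gene was higher and 3 were lower, where 38.9% of all genes were higher, 19.8% lower and 58.7% called. The median log2 fold change was 0.07 for the 10 genes and 0.20 for all genes. The all-gene median of 0.20 fell to 0.04 under TMM scaling, and the split of all calls went from 2356 higher and 1197 lower to 1686 and 1563.

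Mcm3, which was the lowest against TruSeq in TotalScript, was the highest here. It was at 351, 438, 456 and 487 CPM in the 0, 5, 10 and 20% SMART-seq2 libraries. All of these lay above the TruSeq range, and the log2 fold change was 0.88 ± 0.10 (adjusted p = 8.36e-05, edgeR), or 0.71 under TMM scaling. Mcm3 shares bases with the gene CG3309 in RefSeq's Release 6 annotation, and CG3309 was at 105 to 112 CPM in TruSeq, 68.3 to 99.4 CPM in TotalScript and 124 to 150 CPM in SMART-seq2. Counting ignored strand, and the part of this overlap in the Mcm3 counts was not tested.

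Mcm7 was the lowest of the 10 against TruSeq in SMART-seq2. It was at 306, 316, 297 and 305 CPM, all below the TruSeq range, with a log2 fold change of -0.65 ± 0.07 (adjusted p = 3.75e-05, edgeR) and -0.82 under TMM scaling. Release 6 places an antisense RNA, asRNA:CR45871, over Mcm7, and unstranded reads of both cannot be told apart.

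Mcm5 was at 364, 397, 370 and 423 CPM, again below every TruSeq library, with a log2 fold change of -0.47 ± 0.08 (adjusted p = 0.000548, edgeR). Mcm6 was at 235, 333, 337 and 344 CPM, with a log2 fold change of -0.38 ± 0.12 (adjusted p = 0.0198, edgeR). The 0% library was the low one for Mcm6. Without the 10% TruSeq library the Mcm6 call was lost (adjusted p = 0.0515, edgeR).

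Orc1 was at 314, 431, 402 and 458 CPM, below all TruSeq libraries, but it missed the threshold (log2 fold change -0.27 ± 0.11, adjusted p = 0.0545, edgeR) and passed it under TMM scaling (-0.44, adjusted p = 0.013, edgeR). The remaining values were 0.14 ± 0.11 for Mcm2, 0.07 ± 0.10 for dpa, 0.11 ± 0.10 for Orc2, 0.16 ± 0.10 for Orc5 and 0.06 ± 0.09 for dup, none of them called, and all 5 were slightly negative under TMM scaling. In 5 of the 10 genes the SMART-seq2 and TruSeq libraries did not overlap, against 58.8% of all genes. The 0% SMART-seq2 library was the lowest of the 4 for Mcm2, Mcm3, dpa, Mcm5, Mcm6, Orc1, Orc2 and dup. Without it the number called rose from 4 to 7, with Orc1 added to the lower genes and Mcm2 and dup to the higher ones. The share of all genes called in that fit is not given here. The rise can therefore not be read as particular to these genes.

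**Figure D2:**
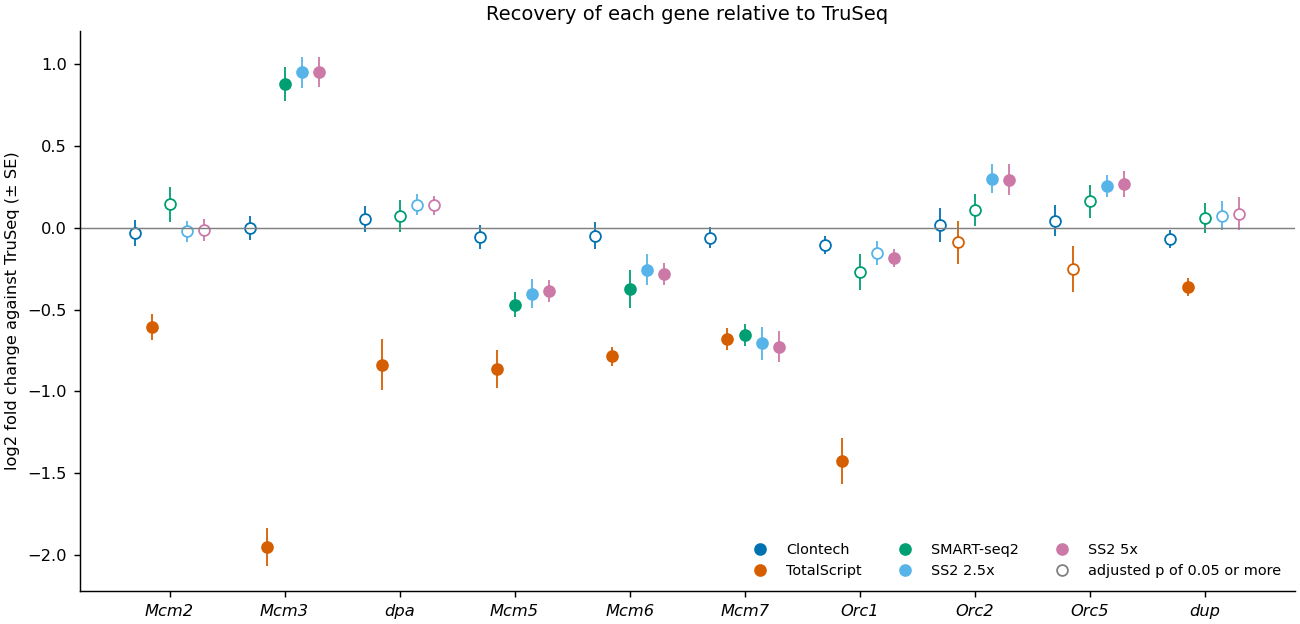
Log2 fold change of each replication gene against TruSeq in the 5 low-input protocols, with the standard error as a vertical bar. Filled points have a Benjamini-Hochberg adjusted p under 0.05 (edgeR's quasi-likelihood test) and open points do not. Clontech lies between -0.10 and 0.05 for every gene, TotalScript reaches -1.95 at Mcm3, and the SMART-seq2 forms run from -0.73 at Mcm7 to 0.95 at Mcm3.

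The smaller tagmentation reactions were sequenced more deeply than full-volume SMART-seq2, and more of the genes were called. At 2.5x, 3 genes were higher and 3 lower than in TruSeq, where 45.7% of all genes were higher, 23.3% lower and 69% called. At 5x, 3 were higher and 4 lower, where 47% of all genes were higher, 24.1% lower and 71% called. The median log2 fold change of the 10 genes was 0.03 at 2.5x and 0.04 at 5x, against 0.22 and 0.23 over all genes. Mcm3, Mcm5, Mcm6 and Mcm7 were called in all 3 SMART-seq2 forms, with the same sign in each. The share of all genes called in all 3 was not counted. These comparisons share the TruSeq libraries, and 2.5x and 5x share their cDNA, so the agreement is not that of 3 separate results.

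Mcm3 was at 553, 467, 431, 443 and 381 CPM in the 0, 1, 5, 10 and 20% libraries at 2.5x, and at 513, 494, 403, 478 and 390 CPM at 5x. Every one of these 10 values was above every TruSeq value. The log2 fold change was 0.95 ± 0.10 at 2.5x (adjusted p = 4.73e-06, edgeR) and 0.95 ± 0.09 at 5x (adjusted p = 1.83e-06, edgeR), and 0.76 in both under TMM scaling.

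Mcm7 was at 333, 309, 283, 325 and 227 CPM at 2.5x and at 308, 316, 261, 334 and 238 CPM at 5x, with the 20% library lowest in both. Its log2 fold changes were -0.71 ± 0.10 (adjusted p = 6.93e-05, edgeR) and -0.73 ± 0.09 (adjusted p = 2.67e-05, edgeR). Mcm5 fell by 0.40 ± 0.09 and by 0.39 ± 0.07 on the log2 scale. These 2 subunits lay below the TruSeq range in every diluted library.

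Mcm6 was at 353, 340, 410, 306 and 288 CPM at 2.5x, where the 5% library reached into the TruSeq range, and its log2 fold change was -0.26 ± 0.09 (adjusted p = 0.0298, edgeR). That call was lost without any single TruSeq library (adjusted p from 0.0572 to 0.0685, edgeR) or without the 1 or 10% library at 2.5x (adjusted p = 0.0519 and 0.0636, edgeR), and with sampled counts (-0.21, adjusted p = 0.104, edgeR). At 5x Mcm6 was at 327, 329, 374, 331 and 303 CPM, below TruSeq throughout, with a log2 fold change of -0.28 ± 0.07.

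Orc2 and Orc5 were higher than in TruSeq at both dilutions. Orc2 was at 131, 143, 129, 143 and 171 CPM at 2.5x and at 130, 150, 120, 146 and 169 CPM at 5x, with log2 fold changes of 0.30 ± 0.09 and 0.29 ± 0.10. The overlapping gene rdx was at 1502 to 1529 CPM in TruSeq, 1153 to 1535 CPM at 2.5x and 1168 to 1511 CPM at 5x. Its part in the Orc2 counts was not tested. Orc5 was at 92.6, 97.4, 89.7, 89.5 and 94.5 CPM at 2.5x and at 91.1, 94.6, 84.2, 92.4 and 105 CPM at 5x, with log2 fold changes of 0.26 ± 0.07 and 0.27 ± 0.08. These 4 calls did not hold under TMM scaling or DESeq2, nor with all 26 libraries in one fit (adjusted p from 0.0512 to 0.0694, edgeR). Under TMM the values were 0.11 and 0.10 for Orc2 and 0.06 and 0.07 for Orc5. TMM removed most of the shift of the all-gene median, from 0.22 to 0.03 at 2.5x and from 0.23 to 0.03 at 5x, and the split of all calls went from 2768 higher and 1409 lower to 2008 and 1864 at 2.5x, and from 2843 and 1456 to 2083 and 1885 at 5x.

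Orc1 was at 485, 460, 436, 414 and 384 CPM at 2.5x and was not called (log2 fold change -0.15 ± 0.07), while at 5x it was at 438, 436, 398, 436 and 422 CPM and was called lower (-0.19 ± 0.06, adjusted p = 0.0103, edgeR). That call was lost with all 26 libraries in one fit (adjusted p = 0.157, edgeR) and with sampled counts (adjusted p = 0.0582, edgeR). Under TMM scaling it was called lower at 2.5x as well (-0.35, adjusted p = 0.0016, edgeR), as it was without the 0% library (-0.20, adjusted p = 0.0226, edgeR). Mcm2, with log2 fold changes of -0.02 ± 0.06 and -0.01 ± 0.07, was called lower only under TMM scaling and DESeq2 (-0.21 at both dilutions with TMM). The values for dpa were 0.14 ± 0.06 at both dilutions and those for dup 0.07 ± 0.09 and 0.09 ± 0.10, none of them called, and both genes turned slightly negative under TMM scaling. The dpa value at 2.5x passed the threshold without the 10% library (adjusted p = 0.0446, edgeR) or the 20% library (adjusted p = 0.0278, edgeR), and the value at 5x without the 5% library (adjusted p = 0.028, edgeR). The dilutions did not overlap with TruSeq in 6 genes at 2.5x and 8 at 5x, against 63.6 and 65.2% of all genes.

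No difference in these genes was detected between 2.5x and full volume or between 5x and 2.5x, and 5x was not tested against full volume. Between 2.5x and full volume the log2 fold changes ran from -0.16 (Mcm2) to 0.19 (Orc2), with normal 95% intervals between -0.40 and 0.47. Neither edgeR nor DESeq2 called any of the 10 or any other gene (0% of 6051), and at an unadjusted p under 0.05 edgeR had 0 of the 10 and 232 of all genes. In none of the 10 did the libraries lie apart, against 1.98% of all genes. Between 5x and 2.5x, which share their cDNA, the unpaired log2 fold changes ran from -0.03 (Orc1) to 0.01 (Mcm5), with intervals between -0.26 and 0.25. In that fit edgeR and DESeq2 called 0 genes (0%), and 0 of all genes had an unadjusted p under 0.05 with edgeR. The fit with the mixture as a block, which pairs the libraries of a cDNA, gave log2 fold changes from -0.03 (Orc1) to 0.02 (Mcm5) with narrower intervals between -0.11 and 0.093. It called 0 genes as well, with 0 of the 10 and 113 of all genes at an unadjusted p under 0.05.

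The balance of helicase reads followed from these values. The Mcm3 share of helicase reads was 9.88% ± 0.62 (SD, n = 4) in Clontech, close to the 9.70% of TruSeq. It was 4.51% ± 0.47 (SD, n = 4) in TotalScript, and 19.1% ± 1.3 (SD, n = 4), 19.7% ± 1.3 (SD, n = 5) and 19.8% ± 1.5 (SD, n = 5) in SMART-seq2 at full volume, 2.5x and 5x. The ranges of the last 3 overlapped with each other and not with TruSeq, Clontech or TotalScript.

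The Mcm7 share was 19.4% ± 0.36 with the Clontech kit and 22.2% ± 1.2 with TotalScript, but 13.6% ± 1.4, 12.8% ± 1.5 and 12.7% ± 1.4 in the SMART-seq2 forms. For Mcm5 the share of reads was 21.7% ± 0.47 (Clontech) and 21.7% ± 1.8 (TotalScript), against 17.2% ± 1.2, 17.6% ± 0.98 and 17.9% ± 0.66 in the SMART-seq2 forms. The dpa share in TotalScript was 18.2, 16.7, 15.3 and 12.5% at 0, 5, 10 and 20% D. virilis, on both sides of the TruSeq range of 15.4 to 16.0%. Among ORC reads, Orc1 held 50.6% ± 2.8 in TotalScript against 71.4% in TruSeq, and 69.7% ± 3.6, 65.1% ± 2.5, 64.7% ± 3.6 and 64.4% ± 2.3 in Clontech, SMART-seq2, 2.5x and 5x. These shares were compared as descriptions, without a test of their own.

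**Figure D3:**
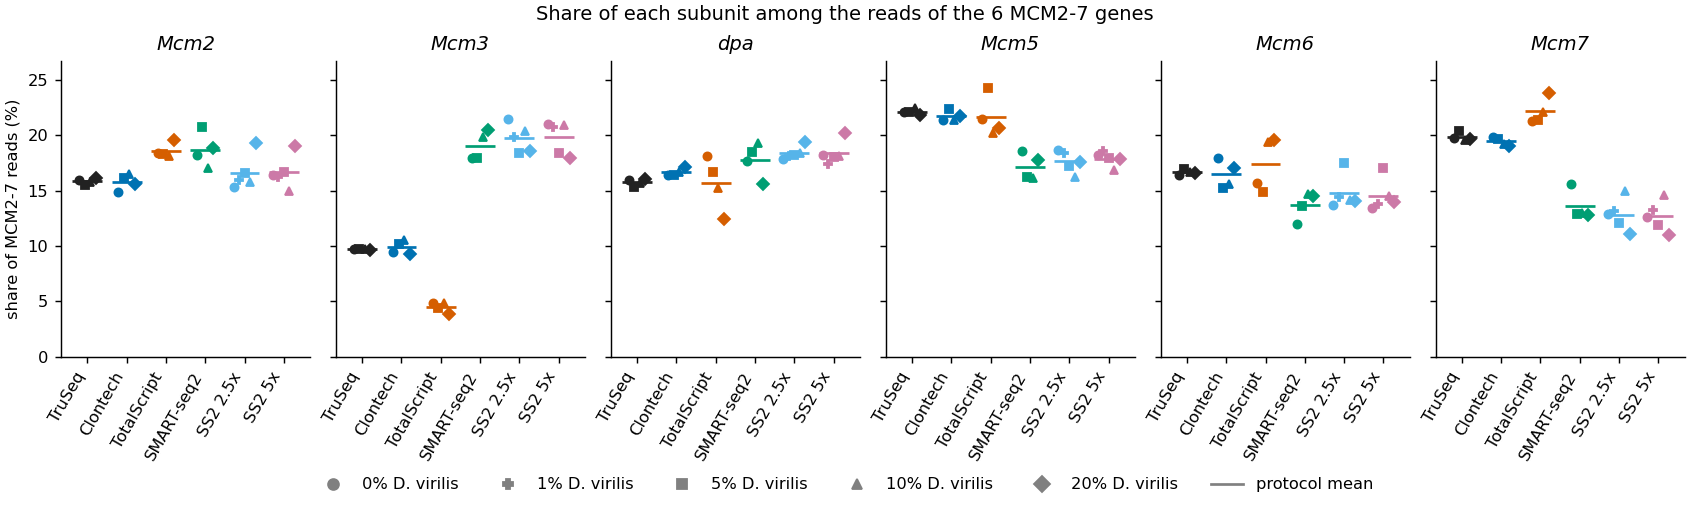
Share of each subunit among the reads on the 6 helicase genes, in percent, with 1 panel per gene and 1 column per protocol (SS2 stands for SMART-seq2). Points are libraries, shapes give the D. virilis share and lines are protocol means. The Mcm3 mean is 9.70% in TruSeq, 4.51% in TotalScript and 19.1 to 19.8% in the SMART-seq2 forms, while the Mcm7 mean is 19.9% in TruSeq and 12.7 to 13.6% in those forms.

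The spread between the libraries of a protocol was set against the spread that counting reads alone would give, by a Poisson homogeneity chi-square test with Benjamini-Hochberg adjustment over all genes. In TruSeq the coefficient of variation (CV, the SD over the mean) of the 10 genes had a median of 1.70%, against 3.17% over all genes. Counting error alone gives a median of 0.942% for the 10 genes and 1.94% over all genes. The medians are therefore not compared at equal counting error. The CV of the 10 genes ran from 0.154% for Orc1, where counting error alone gives 0.851%, to 3.66% for Orc5. Mcm2, dpa, Mcm5 and dup, 4 of the 10, varied beyond counting error, near the 38.5% of all genes. Without the 5% TruSeq library only 2 did, and with the counts sampled to equal numbers of alignments (1911061 to 2067102 D. melanogaster reads) none did. The share of all genes in either setting is not given here, so these drops cannot be read as particular to the 10 genes.

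In the low-input protocols the same genes varied more. The median CV was 7.79% at 5x, 12.4% at 2.5x, 12.3% in SMART-seq2, 10.0% in Clontech and 18.4% in TotalScript. The corresponding medians of all 6051 genes were 14.5, 15.2, 20.9, 15.4 and 16.6%, so TotalScript was the protocol in which the median of the replication genes was above that of all genes. In the same order, counting error alone gives medians of 1.33, 1.33, 3.66, 2.62 and 4.38% for the 10 genes. Over all genes it gives 2.62, 2.62, 7.18, 5.31 and 7.09%, so here too the medians are not at equal counting error. The number beyond counting error was 10 at 5x, 9 at 2.5x, 7 in SMART-seq2, 9 in Clontech and 8 in TotalScript, where all genes gave 98.5, 98.4, 79.1, 81.9 and 66.4%. Deeper libraries detect smaller spreads, and the dilutions were several times deeper than the other low-input libraries.

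Individual genes differed in how steadily they were recovered. In TotalScript dpa had a CV of 25.7%, its highest library being 79.6% above its lowest, while Mcm6 had a CV of 3.09%, within its counting error of 4.29%. Mcm7 had a CV of 2.44% in SMART-seq2, within its counting error of 4.15%, although its level there was far from that of TruSeq. Without the 0% library of SMART-seq2 only 2 of the 10 genes varied beyond counting error. The share of all genes without that library is not given here, so this drop cannot be read as particular to these genes. Orc1 had the smallest CV of the 10 in TruSeq, Clontech (3.08%) and 5x (3.95%) but one of 22.9% in TotalScript. Under TMM scaling its CV in Clontech was 5.34% and beyond counting error, no longer the smallest there.

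**Figure D4:**
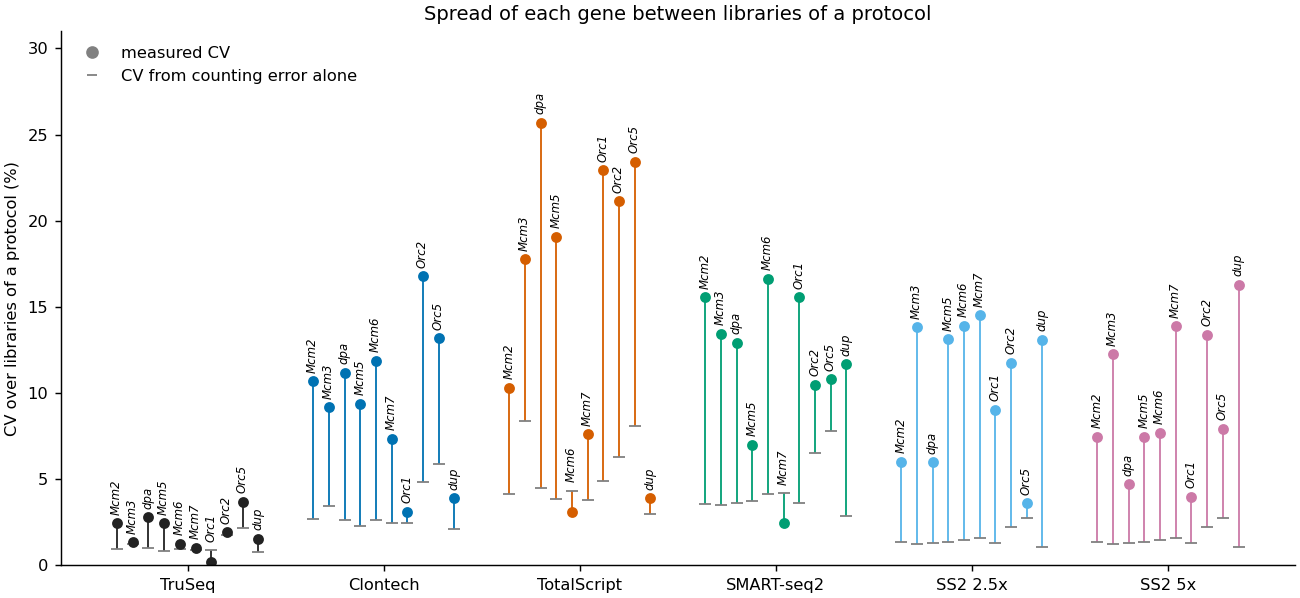
Coefficient of variation of each replication gene over the libraries of a protocol, in percent on an axis from 0 (SS2 stands for SMART-seq2). Each circle is a gene and the dash of the same column is the value that counting error alone would give. The circles lie at 0.154 to 3.66% in TruSeq, reach 25.7% in TotalScript for dpa, and fall below the dash for Orc1 in TruSeq, Mcm6 in TotalScript and Mcm7 in SMART-seq2.

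Whether the levels moved with the share of D. virilis RNA was asked because reads of the other species counted on a fly gene would make them do so. The fitted coefficient is the log2 change from 0 to 20% D. virilis RNA. Over all 26 libraries with protocol as a factor, it ran from -0.14 (Mcm7) to 0.22 (dup), and edgeR called 0 of the 10 and 0 of all genes (0%). At an unadjusted p under 0.05 edgeR had 777 genes, with dup the only one of the 10 (0.22 ± 0.07, adjusted p = 0.236), and DESeq2 was not run for this trend. In TruSeq alone the coefficients lay between -0.02 and 0.04, and none of the 10 was among the 43 genes called (0.711%, with 0.0661% higher and 0.645% lower) or had an unadjusted p under 0.05.

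The trends within the other protocols differed in sign. The median coefficient of the 10 genes was -0.44 in TotalScript, -0.24 at 2.5x, 0.0013 at 5x, 0.20 in SMART-seq2 and 0.29 in Clontech, with 0 genes of the table called in each (0%). An unadjusted p under 0.05 was reached by Mcm3 (-0.41), Mcm5 (-0.38) and Mcm7 (-0.45) at 2.5x, by dup (0.51) at 5x and by Orc2 (0.55) in Clontech, and by none of the 10 in SMART-seq2. In TotalScript the coefficient was -0.89 ± 0.24 for dpa (adjusted p = 0.269, edgeR) and -0.71 ± 0.25 for Orc1 (adjusted p = 0.317, edgeR). These 2 of the 10 had an unadjusted p under 0.05 there. Over all genes edgeR had 778 such genes in TotalScript, 800 at 2.5x, 922 at 5x, 225 in SMART-seq2 and 542 in Clontech. A test of whether the trend differed between protocols called 9 genes (0.149%), none of them a replication gene. In that test 4 of the 10 (dpa, Mcm3, Orc1 and Mcm5) had an unadjusted p under 0.05, as had 1124 of all 6051 genes. The trends within the low-input protocols and this test were added after the data had been seen.

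A list of 36 other replication genes, drawn up with earlier results of these data known, was read in the same fits. All were found and 35 passed the filter, the exception being lat, which encodes Orc3. None was called in Clontech against TruSeq, by edgeR as by edgeR with TMM scaling, where 0.182% of all genes were. In TotalScript 14 of the 35 were higher and 13 lower, close to the shares over all genes (39.3% higher and 38.7% lower), and the median log2 fold change was -0.07 against -0.00. In SMART-seq2 16 were higher and 8 lower (38.9 and 19.8% of all genes), at 2.5x 19 and 9 (45.7 and 23.3%), and at 5x 20 and 9 (47 and 24.1%). The medians of the list were 0.29, 0.30 and 0.31 there, beside 0.20, 0.22 and 0.23 over all genes. With TMM scaling, which removes most of that common shift and was chosen for this list after the data had been seen, the counts were 12 higher and 10 lower, 13 and 11, and 14 and 11, and the medians were 0.12, 0.11 and 0.12.

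In TotalScript the lowest of the list were DNApol-epsilon, a replicative DNA polymerase (-1.66 ± 0.17), and DNApol-alpha73, a polymerase alpha subunit (-1.45 ± 0.14), and the highest were RfC3 of the clamp loader (1.69 ± 0.13) and Psf2 of the GINS complex (1.51 ± 0.19). In SMART-seq2 the lowest were chif, the partner of the Cdc7 kinase (-1.28 ± 0.09), and DNApol-epsilon (-1.06 ± 0.19), and the highest were cdc2c, the S-phase kinase Cdk2 (1.09 ± 0.15), and Psf2 (1.08 ± 0.23). The same 4 genes were at the ends of the list at 2.5x and 5x. The fall in TotalScript that 8 of the 10 genes showed was accompanied by rises as well as falls among other replication RNAs.

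The genes whose levels ran most like the mean of the 10 over the 26 libraries were CG12082, velo and Pink1 (Pearson r = 0.98 each), Cdc5 (0.98) and GlyP (0.98), on log2(CPM + 1) centred per gene. The 10 genes themselves ranged from 0.26 for Mcm7 to 0.97 for Orc1, and the median of all genes was 0.07. These points share libraries and depth, and the values are a description.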

How the data were processed

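The authors mapped single-end reads with STAR to a joint FlyBase release 5 reference of the 2 flies and obtained gene counts with HTSeq, without regard to strand. The deposited columns carry FPKM in their names but hold whole-number counts. The deposited tables at full depth were used, and those the authors had sampled to equal numbers of alignments served as an alternative. Each library size was its D. melanogaster total. Genes were kept where CPM, averaged within and then over the 6 protocols, was at least 5. Protocols were compared with the quasi-likelihood test of edgeR 4.0.16 (R 4.3.3), only the libraries compared entering each fit, with Benjamini-Hochberg adjustment over 6051 genes and a threshold of 0.05. Alternatives were TMM scaling, DESeq2 1.42.0, no filter, all libraries in one fit, sampled counts, the mixture as a block, and each library left out. The scripts were tested on simulated data.

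The members and lists were chosen with earlier results of these data known. The text names the 10 genes, the 2 highest and 2 lowest called genes of the replication list per comparison, and the 5 genes most correlated with their mean profile. The 2.5x and 5x libraries of a mixture come from the same cDNA (the study's methods), and their deviations from the protocol means correlated at 0.83 to 0.931, so the fit with the mixture as a block is given beside the unpaired one.

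Release 6 of the RefSeq annotation, which is not the build of the files, was used only for names, which matched for all 10 genes, and for overlapping genes. There, 6 of the 10 share bases with another gene: Mcm3 with CG3309, Mcm7 with asRNA:CR45871, Orc1 with PIG-G, Orc2 with rdx, Orc5 with GatC and PolG2, and dup with SRPK. The standard errors of fold changes were worked back from the fold change and the F statistic of the edgeR test. The normal 95% intervals rest on them, hold the spread between libraries, and can be narrower than that test implies. For Orc1 at 2.5x against TruSeq the interval was -0.298 to -0.0119, where the unadjusted p was 0.0562 (edgeR). The counting error of the Poisson test treats reads as independent, which without molecular identifiers they are not as molecules.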

Additional observations from a re-analysis of the deposited data

Results flagged for a closer look

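In each protocol the library farthest from the others was compared with the whole range of the gene's values there, giving 60 groups of libraries, of which 4 had a library apart beyond Dixon's critical value. Chance alone gives about 1 in 20 groups. The TruSeq library with 5% D. virilis RNA was the low one for Mcm2 (371 CPM, gap over range 0.883) and for dpa (367 CPM, 0.933). The SMART-seq2 library with 0% was the low one for Mcm6 (235 CPM, 0.896). The 5x library with 20% was the high one for dup (872 CPM, 0.82). At 2.5x the 20% library, from the same cDNA, was also the highest for dup (815 CPM), though not beyond the critical value. No gene of the 10 differed between protocols in its trend with the mixture after adjustment.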

How the results depend on the processing

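Of 810 member fold changes and trends recomputed under alternatives, 722 kept their direction and side of the threshold, 28 lost and 17 gained a call, and 43 changed sign, none of which was a called value. The planned scaling to transcript or coding length was not run, since no length of the build of the files was used here. Over all genes, Clontech against TruSeq gave 385 calls with DESeq2, 27 without the filter, 4 with all 26 libraries in one fit, 44 with the replicate block and 1 to 779 with a library left out. Member calls were 3 with sampled counts at 2.5x, 4 in one fit at 5x, and 3 to 7 in SMART-seq2 with a library left out. Calls between 2.5x and full volume ran from 0 to 4 with a library left out. The mixture trend gave 63 genes without the filter, and 25 in TruSeq under TMM. Spread beyond counting error was called for 0 (sampled) and 2 (TMM) members in TruSeq and 5 (sampled) in TotalScript, and for 2 to 3 in TruSeq and 2 to 7 in SMART-seq2 with a library left out. For these counts of members the matching shares of all genes are not given here, so their changes cannot be read as particular to these genes. Signs turned as follows, in log2 units. In Clontech, Orc2 was -0.0028 with TMM, -0.011 with DESeq2 and -0.031 with sampled counts, and Orc5 was -0.0063 with sampled counts. In SMART-seq2, TMM gave -0.022 for Mcm2, -0.094 for dpa, -0.059 for Orc2, -0.0067 for Orc5 and -0.11 for dup, and DESeq2 gave -0.030, -0.10, -0.068, -0.017 and -0.12. At 2.5x dpa and dup were -0.052 and -0.12 with TMM and -0.063 and -0.13 with DESeq2, and at 5x -0.056 and -0.10, and -0.071 and -0.12. Sampled counts gave 0.025 for Mcm2 at 5x and -0.040 for Orc5 in the mixture trend. With a library left out, the ranges in Clontech were -0.084 to 0.030 for Mcm2, -0.037 to 0.057 for Mcm3, -0.023 to 0.098 for dpa, -0.13 to 0.0017 for Mcm6, -0.069 to 0.10 for Orc2 and -0.023 to 0.11 for Orc5. They were -0.21 to 0.037 for Orc2 in TotalScript, -0.037 to 0.015 for Mcm2 and -0.0067 to 0.11 for dup at 2.5x, and -0.042 to 0.025 for Mcm2 and -0.021 to 0.12 for dup at 5x. With a protocol left out of the mixture trend they were -0.0024 to 0.10 for Mcm2, -0.18 to 0.040 for dpa, -0.043 to 0.11 for Mcm6 and -0.0031 to 0.15 for Orc5. The cause of these changes was not tested. The mixtures paired libraries of different cDNA at most weakly (correlations of deviations -0.355 to 0.292). Against TruSeq the 5% libraries correlated at 0.159 to 0.262, and in all 5 low-input protocols the 5% TruSeq library was the closest. At the other mixtures these correlations with TruSeq ran from -0.126 to 0.292. With the block the member calls against TruSeq were 0, 8, 4, 5 and 5. Orc5 at 2.5x (adjusted p = 0.0563, edgeR) and Orc1 and Orc2 at 5x (adjusted p = 0.0546 and 0.0532, edgeR) were lost. The shallow TotalScript libraries limit the precision for Mcm3 and Orc5, which rested on as few as 104 and 130 reads there. In full-volume SMART-seq2 Orc5 rested on 151 to 189 reads and Mcm3 on 646 to 891.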
